A study of Mus musculus with 8 samples.

Results

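The 10 genes described here encode the mechanically gated calcium channel Piezo1, the machinery that empties and refills the calcium store of the endoplasmic reticulum (Itpr1, Itpr2, Atp2a2, Stim1 and Orai1), and the calcium-dependent phosphatase calcineurin with its regulators and a transcription factor it acts on (Ppp3ca, Rcan1, Rcan2 and Nfatc3). They were taken by gene name from a table of 56748 genes, and all 10 were found and passed the filter on low counts, as did 14279 genes in all. RNA of mouse primary hepatocytes was sequenced after 24 h on collagen-coated polyacrylamide hydrogels of 1 kPa (soft) or 20 kPa (stiff), in 2 libraries for each of 4 groups. All cells came from C57BL/6J mice carrying Yap fl/fl and Taz fl/fl, with a stated age of 7 to 8 weeks. The methods add a ROSA26-LSL-tdTomato reporter and give 7 or 8 weeks as the age at virus injection. The wild-type (WT) mice of the study were the same floxed line given the AAV8-TBG-Null virus, and the Yap/Taz knockout (KO) mice were given AAV8-TBG-Cre, in which the hepatocyte promoter TBG drives Cre, with hepatocytes isolated 10 days later. The groups are named WT soft, WT stiff, KO soft and KO stiff below. The design text calls the mice female and the sample labels call them male, and neither says whether the 2 libraries of a group came from separate animals, so the p-values below measure the spread between these libraries, which may be technical.

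Piezo1 opens when the membrane is stretched and lets calcium into the cell. In hepatocytes, hormones such as vasopressin and noradrenaline act on receptors coupled to phospholipase C, whose product IP3 opens the IP3 receptors (Itpr1, Itpr2, Itpr3) and releases calcium from the endoplasmic reticulum. Stim1 senses the emptied store and opens the plasma membrane channel Orai1, and the SERCA pump Atp2a2 refills the store. Raised cytosolic calcium activates calmodulin and, through it, calcineurin, whose catalytic subunit is encoded by Ppp3ca. Calcineurin dephosphorylates NFAT factors such as Nfatc3, which then enter the nucleus, and the Rcan proteins bind and restrain calcineurin. One of the Rcan1 promoters is a textbook NFAT target.

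Library totals were between 18324083 and 26442310 counts. Yap1 and Wwtr1, the 2 genes deleted, had log2 fold changes, KO against WT, of -1.68 and -1.37 at 1 kPa and of -2.20 and -2.13 at 20 kPa. Ccn2, a YAP/TAZ target gene that responds to stiffness, rose by 3.32 in WT on the stiff hydrogel. The summed level of 8 hepatocyte markers, most of it Alb, was lower in KO than in WT. It was 90046 to 93963 CPM in the WT libraries and 62444 to 63095 in the KO libraries. CPM is the count scaled to a common library total, TMM factor included. Taken singly, the 8 markers did not share one direction between the genotypes. For KO against WT, 3 log2 fold changes were positive and 5 negative at 1 kPa. At 20 kPa, 5 were positive and 3 negative. The sum thus mainly describes Alb and not the list as a whole. Markers of other liver cells were present at low levels, and their summed level differed between the groups. The 9 endothelial markers summed to 77.5 to 79.3 CPM in WT soft, 51.7 to 54.2 in WT stiff and 99.3 to 111 in the 4 KO libraries. The 9 stellate cell and fibroblast markers summed to 36.4 to 36.5, 24.8 to 26.8 and 51.8 to 56.5 CPM in the same order, with Lrat at 0 in 4 libraries. The 8 Kupffer cell and macrophage markers summed to 63.2 to 64.6, 44.5 to 49.2 and 88.1 to 89.5 CPM, with Timd4 at 0 in 1 library. The 6 cholangiocyte markers summed to 548 to 584 CPM in WT soft, 599 to 602 in WT stiff and 320.4 to 348 in KO, most of it Spp1. Cftr was at 0 in every library and Krt7 at 0 in 2. In these bulk samples, fewer cells of a type and less RNA per cell cannot be told apart.

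On the stiff hydrogel, WT hepatocytes had more Piezo1 and Stim1 mRNA and less Rcan2, Ppp3ca and Itpr2 mRNA than on the soft hydrogel. Piezo1 rose 2.42-fold and Stim1 1.47-fold, whereas Rcan2 fell 2.93-fold, Ppp3ca 1.48-fold and Itpr2 1.44-fold. These were 2 of 10 genes called higher and 3 of 10 called lower, where a call needs a Benjamini-Hochberg adjusted p under 0.05 in edgeR's quasi-likelihood test and an absolute log2 fold change over 0.5. In the whole table tested, the shares called in this comparison were 10.0% on the higher side and 9.26% on the lower side. Itpr1 (log2 fold change -0.40) and Nfatc3 (-0.19) passed the adjusted p but not the fold limit. Orai1, Atp2a2 and Rcan1 had fold changes between -0.09 and 0.03 with adjusted p of 0.124 to 0.787. The absolute log2 fold change had a median of 0.46 over the 10 genes and of 0.27 over the whole table. In KO hepatocytes none of the 10 was called on either side, 1 of 10 had an unadjusted p under 0.05, and DESeq2 also called 0. Only 0.0140% of all genes were called higher and 0.00700% lower in that comparison, so the count of 0 is near the background. There, 7.54% of all genes had an unadjusted p under 0.05.

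**Figure D1:**
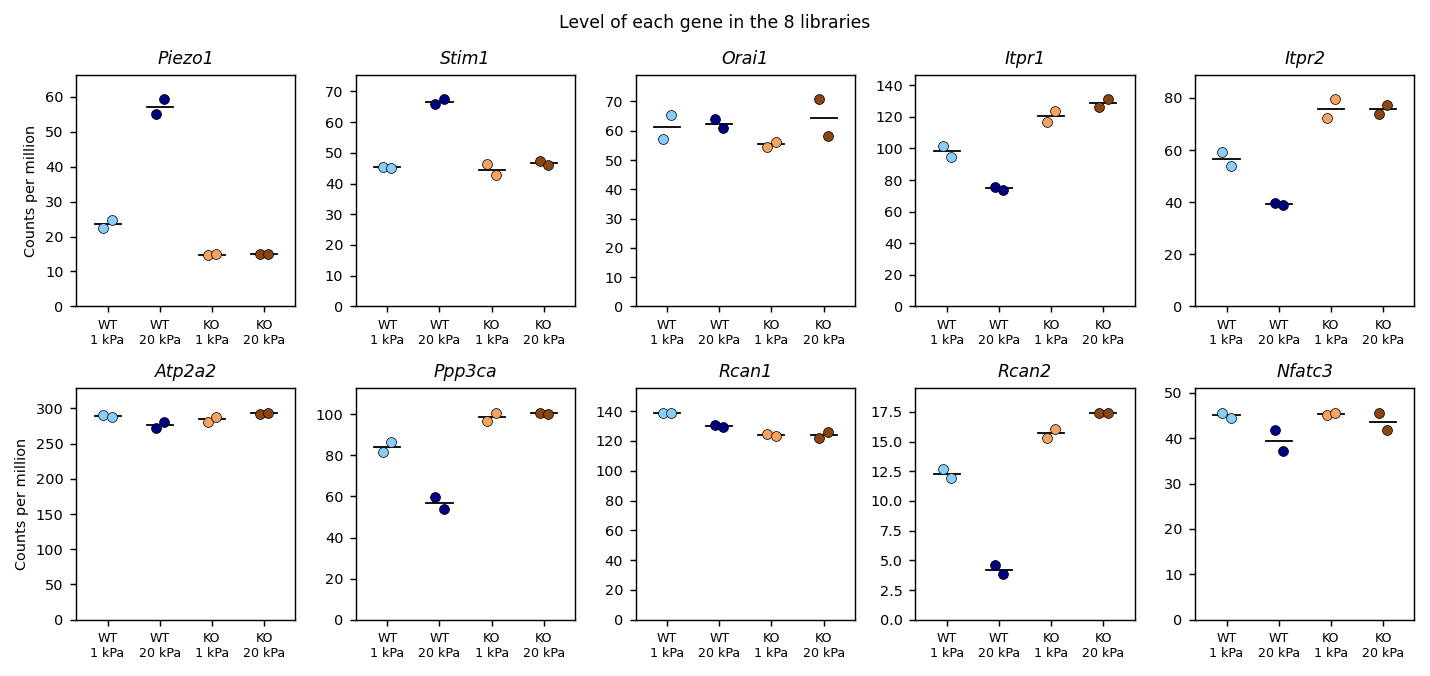
Level of each gene in CPM (vertical axis, from 0) in the 4 groups, with 1 point for each library and a bar at the mean of the 2 libraries. Piezo1 and Stim1 were highest, and Itpr1, Itpr2, Ppp3ca and Rcan2 lowest, in the WT libraries on the stiff (20 kPa) hydrogel, while the KO libraries of both hydrogels lay close together.

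Piezo1 (ENSMUSG00000014444, chromosome 8, 123208437 to 123278068, minus strand, in the coordinates of the deposited table) was measured with 582 and 448 counts in WT soft, 1140 and 1167 in WT stiff, 379 and 300 in KO soft, and 319 and 301 in KO stiff. As CPM these were 22.4 and 24.9, 55.0 and 59.3, 14.8 and 14.9, and 14.9 and 14.9. The WT stiff libraries were the highest, the WT soft libraries came next, and all 4 KO libraries lay below both, with no overlap between the WT groups or between WT and KO. The log2 fold change, stiff against soft, was 1.28 ± 0.08 (SE, n = 2 libraries a group) in WT, with an edgeR adjusted p of 3.93e-10. In KO it was 0.01, with a 95% confidence interval of -0.19 to 0.20 and an adjusted p of 0.996. The difference between the 2 effects, KO minus WT, was -1.27 ± 0.12 (edgeR adjusted p = 2.83e-07). The genotypes also differed on each hydrogel alone. KO libraries had 1.59-fold less Piezo1 mRNA than WT on the soft hydrogel (log2 -0.67 ± 0.09, edgeR adjusted p = 2.12e-05) and 3.83-fold less on the stiff hydrogel (log2 -1.94 ± 0.09, edgeR adjusted p = 1.09e-12). Piezo1 was the only one of the 10 called between the genotypes on the soft hydrogel, where 2.02% of all genes were called higher and 4.65% lower.

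Piezo1 overlaps Ctu2, a tRNA thiolation gene on the opposite strand, over 24.6% of its exon bases in the GENCODE annotation. Ctu2 had a mean of 575 counts beside 580 for Piezo1, and while the methods name dUTP in cDNA synthesis, as used for strand-specific libraries, the strand setting of the counting is not given in the sources used here. The Ctu2 level was 23.2 and 29.1 CPM in WT soft, 29.0 and 26.0 in WT stiff, and between 25.6 and 28.0 in KO. Its log2 fold change in WT was 0.08 with an edgeR adjusted p of 0.551, and it was called in none of the 5 comparisons. Piezo2, the paralog, was at 1 to 4 counts a library and was not tested. Piezo1 made up 99.4% or more of the PIEZO mRNA per length in each library.

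RefSeq places one start site of Piezo1 in GRCm38.p6, and the 250 bases before it are shown because Piezo1 was the member with the largest rise. A script searched the promoters for 3 short motifs on both strands: the core GGAATG bound by TEAD factors, the partners of YAP and TAZ, the NFAT core GGAAAA, and TATAAA, the TATA box. Of 32851 promoters of the same length, 12.6%, 20.4% and 12.4% held them. The motifs do not overlap one another in the windows printed here. The Piezo1 window (chr8:122551330-122551579, minus strand) has a G and C content of 74% and holds TATAAA, in capitals, from position -24 relative to the start, and neither of the others.
Piezo1 promoter: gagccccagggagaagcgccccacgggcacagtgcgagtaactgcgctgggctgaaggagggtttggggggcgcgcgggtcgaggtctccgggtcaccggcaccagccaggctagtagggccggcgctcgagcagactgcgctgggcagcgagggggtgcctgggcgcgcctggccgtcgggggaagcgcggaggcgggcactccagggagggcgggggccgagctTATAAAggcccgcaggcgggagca
RefSeq promoters were matched for 7 of the 10 genes, with 11 windows in all, since Rcan1 has 2 start sites, Nfatc3 has 2 and Rcan2 has 3. Itpr1, Atp2a2 and Ppp3ca had no entry. GGAATG occurred in 0 of the 11 windows, which says only that these letters are not in them.

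The Piezo1 pattern over the 8 libraries was compared with that of 10037 genes with a mean of at least 100 counts, by Pearson's r of log2 CPM as a description. WT stiff, WT soft and the KO libraries stand apart in Piezo1, so r mostly reflects the order of these 3 levels. The 5 genes most like it were Cgn (r = 0.998), Csf1, Flnc, Plscr1 and Jpt2. Cgn encodes cingulin of the tight junction, Csf1 the macrophage growth factor, and Flnc the actin crosslinker filamin C. Cgn had group means of 125 CPM in WT soft, 335 in WT stiff, and 69.8 and 69.9 in KO. The 5 most unlike were Gbe1 (r = -0.999), Mug1, Cyp2e1, Derl1 and Pgap4. Gbe1, the glycogen branching enzyme, had group means of 581, 299.8, 852 and 824 CPM in the order WT soft, WT stiff, KO soft and KO stiff. Among the other 9 genes of the group, r was 0.92 for Stim1 and between -0.99 and -0.98 for Itpr1, Itpr2, Ppp3ca and Rcan2. It lay between -0.75 and 0.43 for Orai1, Atp2a2, Rcan1 and Nfatc3. Many genes had such values, since Stim1 stood only at percentile 86.7 of the genes compared. Itpr2, Ppp3ca, Rcan2 and Itpr1 stood at percentiles 1.86 to 3.69.

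**Figure D2:**
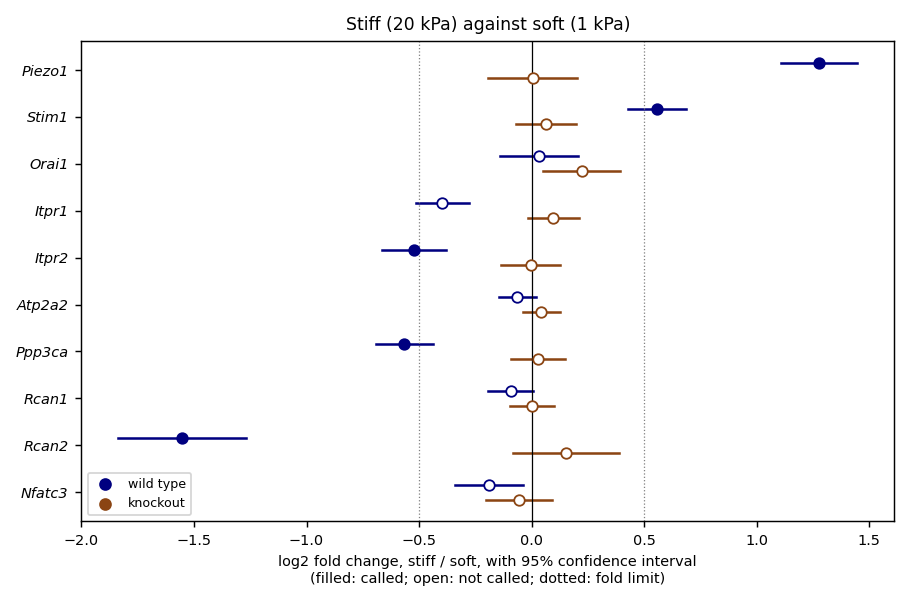
Log2 fold change of each gene, stiff against soft (horizontal axis), in WT (blue) and KO (brown), with 95% confidence intervals from the edgeR fit. Filled points were called, and dotted lines mark the fold limit of 0.5. In WT, Piezo1 (1.28) and Stim1 (0.56) were called higher and Rcan2 (-1.55), Ppp3ca (-0.56) and Itpr2 (-0.52) lower, and in KO no gene was called.

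Of the store-operated entry pair, the sensor Stim1 moved with stiffness in WT cells and the channel Orai1 did not pass the test. Stim1 (ENSMUSG00000030987) was at 45.5 and 45.2 CPM in WT soft, 66.0 and 67.4 in WT stiff, 46.5 and 42.7 in KO soft, and 47.5 and 45.9 in KO stiff. Both WT stiff libraries lay above the other 6, which were between 42.7 and 47.5 CPM. The log2 fold change was 0.56 ± 0.06 in WT (edgeR adjusted p = 7.85e-07) and 0.06 in KO (95% confidence interval -0.07 to 0.20). The difference between the effects was -0.49 ± 0.09 (edgeR adjusted p = 3.17e-04), just under the fold limit, and it passed that limit, at -0.51 to -0.55, without WT soft replicate 1, WT stiff replicate 1, KO soft replicate 2 or KO stiff replicate 1. On the stiff hydrogel Stim1 was called lower in KO than in WT, at -0.51 ± 0.06 (edgeR adjusted p = 1.32e-06), and it was at -0.50 with upper quartile scaling and -0.46 with library size alone, both under the fold limit. Orai1 (ENSMUSG00000049686) was at 57.1 and 65.4 CPM in WT soft, 63.9 and 60.9 in WT stiff, 54.6 and 56.1 in KO soft, and 70.7 and 58.1 in KO stiff. The KO stiff libraries differed by more than the group means did. Its 95% confidence interval for stiffness was -0.14 to 0.20 in WT and 0.05 to 0.39 in KO, where the adjusted p was 0.610.

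The paralogs of this pair behaved differently from one another. Stim2, the second sensor, had a log2 fold change of 0.02 in WT (edgeR adjusted p = 0.883), and the share of Stim1 in the STIM mRNA, per length, was 44.2% and 45.5% in WT stiff and between 33.2% and 37.6% in the other 6 libraries. Orai2 fell by 1.11 in WT (edgeR adjusted p = 6.16e-04), from 4.16 and 4.89 CPM to 1.83 and 2.34, and made up at most 2.20% of the ORAI mRNA. Orai3, which made up 27.9% to 35.2%, had a log2 fold change of -0.14 in WT (edgeR adjusted p = 0.288).

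The IP3 receptors, which release calcium from the store, did not move as a block. Itpr2 (ENSMUSG00000030287), the isoform known as the main one in hepatocytes, was at 59.2 and 53.9 CPM in WT soft, 39.8 and 39.0 in WT stiff, 72.4 and 79.4 in KO soft, and 73.8 and 77.4 in KO stiff. The WT stiff libraries were lowest, the WT soft libraries came next and the KO libraries were highest, and the KO groups overlapped. Itpr2 fell by 0.52 ± 0.07 in WT (edgeR adjusted p = 5.15e-06), while in KO the 95% confidence interval was -0.14 to 0.13. The difference between the effects was 0.52 ± 0.09 (edgeR adjusted p = 2.95e-04). Without WT soft replicate 1 the fall in WT was -0.45 and the difference 0.43, both under the fold limit and with edgeR adjusted p of 1.29e-04 and 0.00192. The difference was also under the limit, at 0.45 to 0.50, without WT stiff replicate 2, KO soft replicate 1 or KO stiff replicate 2. KO had 1.92-fold more Itpr2 mRNA than WT on the stiff hydrogel (log2 0.94 ± 0.07, edgeR adjusted p = 1.09e-09), and on the soft hydrogel 1.34-fold more, a log2 fold change of 0.42 that passed the adjusted p but not the fold limit.

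Itpr1 (ENSMUSG00000030102) followed the same order of groups. It was at 102 and 94.9 CPM in WT soft, 75.7 and 73.8 in WT stiff, 117 and 124 in KO soft, and 126 and 131 in KO stiff. No library of one genotype overlapped with the other. The log2 fold change in WT was -0.40 ± 0.06 (edgeR adjusted p = 1.31e-05), under the fold limit, and the difference between the effects was 0.49 ± 0.08 (edgeR adjusted p = 7.97e-05), also under it. The difference passed the limit, at 0.52 to 0.53, without WT soft replicate 2, KO soft replicate 2 or KO stiff replicate 1. On the stiff hydrogel KO had 1.72-fold more Itpr1 mRNA than WT (log2 0.78 ± 0.05, edgeR adjusted p = 9.74e-10), which was called.

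Itpr3, the receptor known from bile duct cells, went the other way in WT, with a log2 fold change of 0.43 (edgeR adjusted p = 1.15e-04) that was under the fold limit. It was at 42.2 and 36.9 CPM in WT soft, 55.9 and 51.0 in WT stiff, and 41.8 to 50.8 in KO. The share of Itpr3 in the IP3 receptor mRNA per length was 31.7% and 32.9% in WT soft, 45.9% and 47.6% in WT stiff, and 28.5% to 32.2% in KO. Itpr2 was 20.7% and 21.4% in WT stiff and 28.1% to 31.6% elsewhere. Itpr1 was 31.75% and 32.7% in WT stiff and 39.0% to 40.2% elsewhere. Itpr2, though known as the main isoform in hepatocytes, thus had the largest mRNA share in no library. The summed level of the 3 receptors per kb of gene length was 12.9 to 14.2 CPM in WT soft, 12.3 to 13.0 in WT stiff and 15.9 to 17.8 in KO.

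Atp2a2 (ENSMUSG00000029467), the pump that refills the store, was the most abundant of the 10 genes per kb of the deposited gene length, with group means of 276 to 293 CPM. It was at 290.3 and 287 CPM in WT soft, 273 and 280.2 in WT stiff, 281 and 288 in KO soft, and 292 and 294 in KO stiff. Its log2 fold change was -0.06 in WT (95% confidence interval -0.15 to 0.02, edgeR adjusted p = 0.222) and 0.04 in KO (-0.04 to 0.13). It made up at least 99.4% of the SERCA mRNA per length. Atp2a1, the muscle pump, was called higher in WT, but from 2 and 3 counts to 15 and 13.

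**Figure D3:**
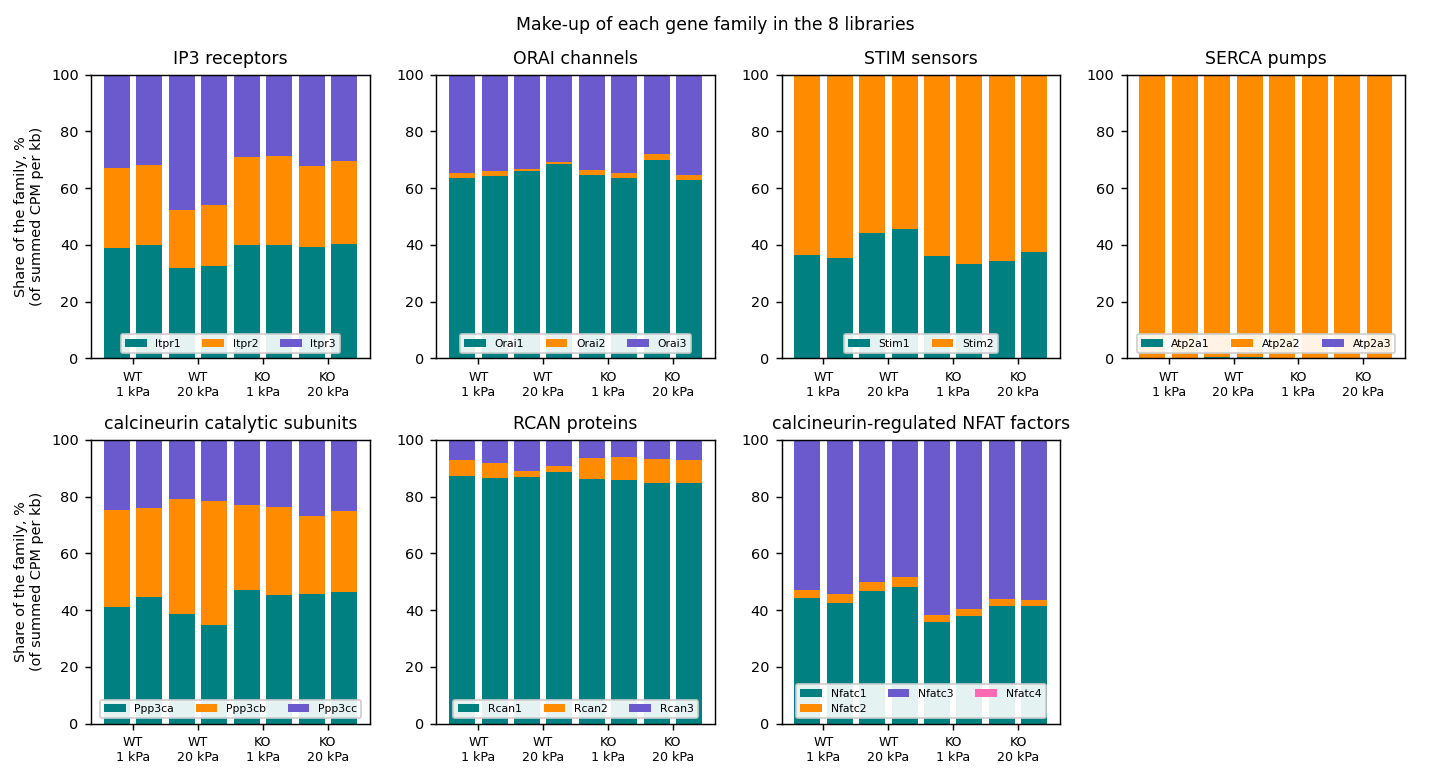
Share of each paralog in its family (vertical axis, percent of the summed CPM per kb of gene length) in the 8 libraries, with 2 bars a group. In the WT stiff libraries the Itpr3 share was 45.9% and 47.6%, the Stim1 share 44.2% and 45.5% and the Ppp3cb share 40.6% and 43.7%, each above the other 6 libraries, while Atp2a2 made up nearly all SERCA mRNA throughout.

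In the calcineurin group, the catalytic subunit gene Ppp3ca and the regulator Rcan2 fell on the stiff hydrogel in WT. Ppp3ca (ENSMUSG00000028161) was at 81.6 and 86.7 CPM in WT soft, 59.9 and 53.7 in WT stiff, 96.6 and 101 in KO soft, and 101 and 100.4 in KO stiff. The order of the groups was that of Itpr2, with the KO groups overlapping. The fall in WT was -0.56 ± 0.06 (edgeR adjusted p = 5.05e-07) and was -0.49, under the fold limit, without WT stiff replicate 2. In KO the 95% confidence interval was -0.09 to 0.15, and the difference between the effects was 0.59 ± 0.08 (edgeR adjusted p = 2.59e-05). KO had 1.77-fold more Ppp3ca mRNA than WT on the stiff hydrogel (log2 0.82 ± 0.06, edgeR adjusted p = 1.56e-09).

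The other subunits did not share one pattern. Ppp3cc, a catalytic subunit of lower level, fell by 0.56 in WT (edgeR adjusted p = 7.84e-04), from 14.6 and 14.0 CPM to 9.55 and 9.96. Ppp3cb had a log2 fold change of 0.02 (edgeR adjusted p = 0.837) and the regulatory subunit Ppp3r1 one of -0.01 (0.940). The 3 catalytic subunits summed to 19.4 to 19.8 CPM per kb in WT soft, 15.5 and 15.5 in WT stiff, and 20.5 to 22.2 in KO. Ppp3ca was 34.8% and 38.8% of that sum in WT stiff and 41.3% to 47.3% elsewhere.

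Rcan2 (ENSMUSG00000039601) had the largest fall of the 10 genes. It was measured with 329 and 215 counts in WT soft, 95 and 75 in WT stiff, 393 and 323 in KO soft, and 372 and 353 in KO stiff. As CPM these were 12.7 and 11.9, 4.58 and 3.81, 15.3 and 16.1, and 17.4 and 17.4. The 4 groups did not overlap, with WT stiff lowest and KO stiff highest. The fall in WT was -1.55 ± 0.14 (edgeR adjusted p = 3.37e-08), the 95% confidence interval in KO was -0.08 to 0.39, and the difference between the effects was 1.70 ± 0.18 (edgeR adjusted p = 6.01e-07). KO had 4.14-fold more Rcan2 mRNA than WT on the stiff hydrogel (log2 2.05 ± 0.13, edgeR adjusted p = 2.62e-10). On the soft hydrogel the log2 fold change was 0.35 (edgeR adjusted p = 0.0417), under the fold limit.

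Rcan1 (ENSMUSG00000022951), the regulator that NFAT factors are known to induce, was at 139 and 139 CPM in WT soft, 131 and 129.7 in WT stiff, 124 and 123 in KO soft, and 122 and 126 in KO stiff. The WT soft libraries were the highest, though the groups lay within a narrow range. Its log2 fold change with stiffness was -0.09 in WT (95% confidence interval -0.19 to 0.01, edgeR adjusted p = 0.124) and 0.00 in KO (-0.10 to 0.10). KO had slightly less than WT on the soft hydrogel, by -0.17 ± 0.05 (edgeR adjusted p = 0.0173), under the fold limit. Rcan1 made up 84.8% to 88.8% of the RCAN mRNA per length, and the Rcan2 share was 5.25% and 5.62% in WT soft, 1.84% and 2.15% in WT stiff, and 7.49% to 8.55% in KO. Rcan3 had a log2 fold change of 0.30 in WT (edgeR adjusted p = 0.0313), under the fold limit. On the stiff hydrogel edgeR and DESeq2 both called Rcan3 lower in KO than in WT (DESeq2 log2 -0.60, DESeq2 adjusted p = 8.9e-05).

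The promoters of these 2 regulators are shown because they differ in the NFAT core. Of the 2 Rcan1 start sites in RefSeq (GRCm38.p6), the downstream window (chr16:92400079-92400328, minus strand) holds the core at -228, read as TTTTCC on the printed strand, and at -193, and the upstream window (chr16:92466170-92466419, minus strand) holds none. Of the 3 Rcan2 windows, only that of the first start site (chr17:43801102-43801351, plus strand) holds a core, at -239, also as TTTTCC. Cores are in capitals. The counts are per gene and do not tell which start site was used.
Rcan1 downstream promoter: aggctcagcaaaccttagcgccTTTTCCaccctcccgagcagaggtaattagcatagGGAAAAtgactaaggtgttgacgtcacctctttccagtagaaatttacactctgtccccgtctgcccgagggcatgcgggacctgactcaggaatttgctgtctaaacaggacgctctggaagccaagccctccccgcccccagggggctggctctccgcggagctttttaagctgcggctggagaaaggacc
Rcan1 upstream promoter: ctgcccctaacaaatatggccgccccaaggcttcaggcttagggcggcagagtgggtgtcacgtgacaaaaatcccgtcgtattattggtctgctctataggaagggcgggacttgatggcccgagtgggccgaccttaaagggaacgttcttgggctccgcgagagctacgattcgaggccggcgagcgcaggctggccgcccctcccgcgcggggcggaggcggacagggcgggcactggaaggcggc
Rcan2 first promoter: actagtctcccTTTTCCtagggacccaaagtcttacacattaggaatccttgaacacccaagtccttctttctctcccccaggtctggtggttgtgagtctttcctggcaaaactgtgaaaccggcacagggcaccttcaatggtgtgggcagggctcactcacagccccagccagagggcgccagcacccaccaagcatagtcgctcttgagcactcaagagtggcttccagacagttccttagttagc
A match of 6 bases is a description of the letters, and 20.4% of all promoters of this length hold the core.

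Nfatc3 (ENSMUSG00000031902) was at 45.5 and 44.5 CPM in WT soft, 41.9 and 37.1 in WT stiff, 45.1 and 45.6 in KO soft, and 45.4 and 41.8 in KO stiff. The WT stiff libraries were lower than the WT soft libraries and overlapped with KO stiff. The log2 fold change in WT was -0.19 ± 0.07 (edgeR adjusted p = 0.0411), under the fold limit, and the 95% confidence interval in KO was -0.20 to 0.09. It shares 1.87% of its exon bases with Esrp2 on the other strand. Nfatc3 made up 48.2% to 61.9% of the mRNA of the 4 calcineurin-regulated NFAT genes per length and Nfatc1 35.8% to 48.3%. Nfatc1, with a log2 fold change of 0.07 in WT, was lower in KO than in WT on the soft hydrogel (log2 -0.40, edgeR adjusted p = 0.00596), under the fold limit. Nfatc2 was at 1.28 to 2.44 CPM, and Nfatc4 was not tested.

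On the stiff hydrogel, where the genotypes differed most, 6 of the 10 genes were called. Rcan2, Itpr2, Ppp3ca and Itpr1 were higher in KO than in WT, and Piezo1 and Stim1 were lower. Of all genes, 13.7% were called higher and 15.0% lower there. The absolute log2 fold change had a median of 0.65 over the 10 genes and of 0.34 over the whole table. The difference of the stiffness effect was called for 4 of 10, Piezo1 on the lower side and Itpr2, Ppp3ca and Rcan2 on the higher side, beside 8.64% of all genes called higher and 8.21% lower. These comparisons share libraries: the WT stiff pair enters the WT stiffness effect, the difference between effects and the genotype comparison on the stiff hydrogel, and the WT soft pair enters the first 2 and the genotype comparison on the soft hydrogel.

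**Figure D4:**
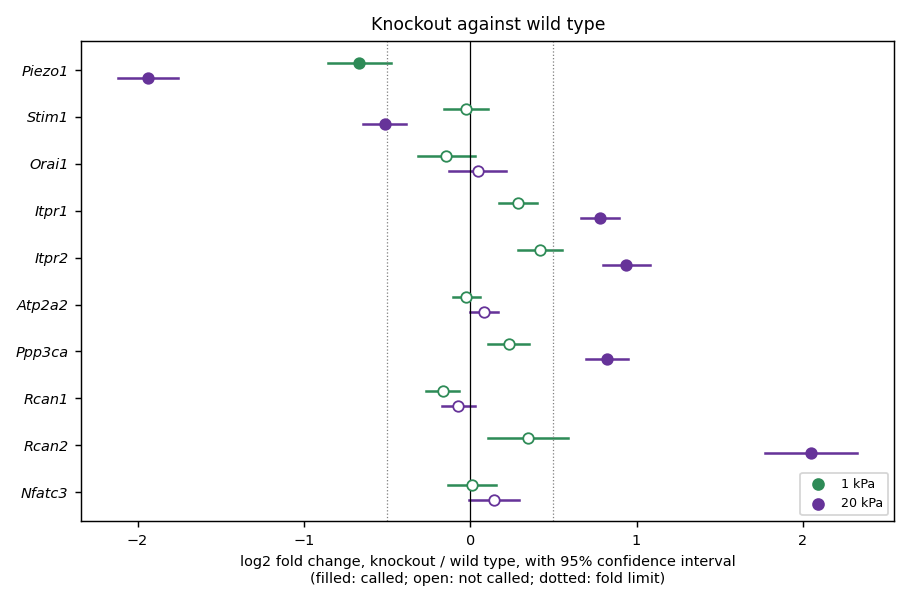
Log2 fold change of each gene, KO against WT (horizontal axis), on the soft (green) and stiff (purple) hydrogel, with 95% confidence intervals from the edgeR fit. Filled points were called, and dotted lines mark the fold limit of 0.5. Only Piezo1 (-0.67) was called on the soft hydrogel, and 6 genes were called on the stiff hydrogel, from -1.94 for Piezo1 to 2.05 for Rcan2.

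Beside these values stand those of the other liver cell types. Itpr1, Itpr2, Ppp3ca and Rcan2 were lowest in WT stiff and highest in KO, and the summed endothelial, stellate and Kupffer cell markers had the same order. Among the 8 hepatocyte markers, Hnf4a and Cyp2e1 had this order too, and the others did not. Hnf4a had group means of 372, 189, 423 and 426 CPM in WT soft, WT stiff, KO soft and KO stiff. Cyp2e1 was at 234, 69.9, 477 and 485 CPM in that order. The marker counts below stand beside 10.0% of all genes called higher and 9.26% lower in WT. In KO against WT on the stiff hydrogel the shares were 13.7% and 15.0%. In WT, 5 of the 9 endothelial markers were called lower on the stiff hydrogel, with a median log2 fold change of -0.59 over the list. On the stiff hydrogel, 8 of 9 were called higher in KO than in WT, with a median of 1.04. In lists this short, a count of 1 lies near the shares over all genes. Of 8 stellate cell and fibroblast markers tested, 3 were called lower and 1 higher in WT, and of 8 Kupffer cell and macrophage markers 4 were called lower. The part of these cells in the levels of the 4 genes was not tested. Piezo1 and Stim1 were highest in WT stiff instead, as was the summed level of the cholangiocyte markers, which was lowest in KO. Most of that sum was Spp1, at 542 and 507 CPM in WT soft and 543 and 536 in WT stiff. Spp1 and Sox9 both overlapped between WT soft and WT stiff. Epcam went the other way, at -0.37 in WT and 0.84 in KO against WT on the stiff hydrogel, and was not called. Of 4 cholangiocyte markers tested, 1 was called higher in WT (Krt19, at 3.30) and 2 were called lower in KO than in WT on the stiff hydrogel (Krt19 at -4.87 among them), and their part in the levels of Piezo1 and Stim1 was not tested. Of the 8 hepatocyte markers, 3 were called lower in WT on the stiff hydrogel (Cyp2e1 -1.75, Hnf4a -0.98 and Fgb -0.60) and 1 higher (Ass1 0.77), whose part was likewise not tested.

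Per kb of gene length, the order of the 10 levels was led by Atp2a2, Rcan1 and Orai1 in each group. In WT soft these stood at 47.5, 45.0 and 26.7 CPM per kb, followed by Ppp3ca (8.43), Itpr1 (5.37), Stim1 (4.37), Nfatc3 (3.84), Itpr2 (3.82), Rcan2 (2.81) and Piezo1 (2.38). Nfatc3 and Itpr2 overlapped, and the other neighbours did not. In WT stiff, Stim1 (6.43) came next and Piezo1 (5.75) and Ppp3ca (5.69) overlapped behind it, followed by Itpr1 (4.08), Nfatc3 (3.37), Itpr2 (2.66) and Rcan2 (0.96). In KO soft and KO stiff Piezo1 was the lowest of the 10, at 1.50 and 1.50, and no neighbours overlapped. With 2 libraries a group, this spread is a range of 2 values. The order, like the shares per length, rests on the deposited gene lengths, which exceed the longest GENCODE transcript unevenly. They were 6081 against 5674 bases for Atp2a2, 3085 against 2324 for Rcan1 and 18319 against 9870 for Itpr1. The order with other lengths was not tested.

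The wider calcium pathway was read from 8 lists with 105 genes, the 10 included, of which 87 were tested. In WT, stiff against soft, 9 rose and 8 fell past both limits, and the list median was -0.01 on the log2 scale. In KO 0 were called by edgeR, 5 had an unadjusted p under 0.05, and DESeq2 called 0. The difference of the effect was called higher for 8 and lower for 7, and KO differed from WT in 3 higher and 4 lower at 1 kPa and in 9 higher and 11 lower at 20 kPa. Over all genes the shares called higher and lower were 10.0% and 9.26% in WT, 8.64% and 8.21% for the difference, 2.02% and 4.65% at 1 kPa, and 13.7% and 15.0% at 20 kPa. In KO they were 0.0140% and 0.00700%, so the count of 0 is near the background. An unadjusted p under 0.05 was found for 7.54% of all genes in KO.

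Genes that bring calcium in or send it out of the cell, or move it within, gave the following calls in WT. Beside them, 10.0% of all genes were called higher and 9.26% lower. Of 15 calcium entry genes tested, 2 were higher (Piezo1 and Stim1) and 1 lower (Orai2), both near those shares. The stretch- and heat-gated channel Trpv2, at 0.278 to 1.54 CPM, was called higher in KO than in WT on the soft hydrogel by 1.85, from 8 and 5 counts to 17 and 31, and not by DESeq2 (adjusted p = 0.0657). Of 5 extrusion genes tested, 2 were called lower and none higher. The plasma membrane calcium pump Atp2b1 was at 149 and 144 CPM in WT soft, 62.6 and 66.2 in WT stiff, and between 185 and 193 in KO. It fell by 1.18 ± 0.05 in WT (edgeR adjusted p = 2.11e-12), and it was higher in KO than in WT by 1.54 on the stiff hydrogel. The exchanger Slc24a3 fell by 0.66 in WT. None of 9 genes of mitochondrial calcium uptake was called in WT by edgeR, 2 of them had an unadjusted p under 0.05, and DESeq2 called 0. Over all genes, 48% had an unadjusted p under 0.05 in WT. Of 13 store genes tested, Atp2a1 was called higher and Itpr2 and Ryr2 lower, and Ryr2, a ryanodine receptor of heart and brain, had 7 to 22 counts in the WT libraries. DESeq2 kept only Itpr2, with adjusted p of 0.0685 for Atp2a1 and 0.0566 for Ryr2.

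Upstream of the store, 3 of 16 receptor, G protein and phospholipase C genes were called higher in WT and none lower, beside 10.0% and 9.26% of all genes, and DESeq2 called 2 higher. Avpr1a, the vasopressin receptor of hepatocytes, was at 2.93 and 2.94 CPM in WT soft, 13.0 and 13.0 in WT stiff, and 2.67 to 4.10 in KO. It rose by 2.14 ± 0.19 (edgeR adjusted p = 3.88e-08), and the difference of the effect was -2.15 ± 0.28 (edgeR adjusted p = 1.26e-05). The phospholipases Plcg2 and Plcd1 rose by 1.44 and 1.63, both under 3 CPM, and DESeq2 did not call Plcd1 (adjusted p = 0.0631). Plcg2 was also called higher in KO than in WT on the soft hydrogel, by 1.32, and Gna14 lower on the stiff hydrogel, at -2.36, with 1 to 16 counts a library, a call that DESeq2 did not make (adjusted p = 0.0574).

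Calm2, which encodes calmodulin, the carrier of the calcium signal to calcineurin, rose in WT. Of 9 genes for calmodulin and its kinases, 3 were called higher and none lower in WT, beside 10.0% and 9.26% of all genes. Calm2 was at 224 and 211 CPM in WT soft, 368 and 375 in WT stiff, and 178 to 202 in KO, a rise of 0.77 ± 0.05 (edgeR adjusted p = 9.84e-10). Camkk2, a kinase that acts upstream of AMPK, rose by 0.99. In KO, Camkk2 was called lower than in WT on the stiff hydrogel (log2 -1.52) and Camk2b on the soft hydrogel (log2 -0.79). Of 9 calcineurin genes tested, 3 were called lower in WT (Rcan2, Ppp3ca and Ppp3cc) and none higher. Of 11 NFAT factors and NFAT kinases tested, edgeR called none in any of the 5 comparisons, with 4 at an unadjusted p under 0.05 in the WT stiffness comparison and DESeq2 calling 0 there, and the median log2 fold change of the list in WT was -0.02.

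**Figure D5:**
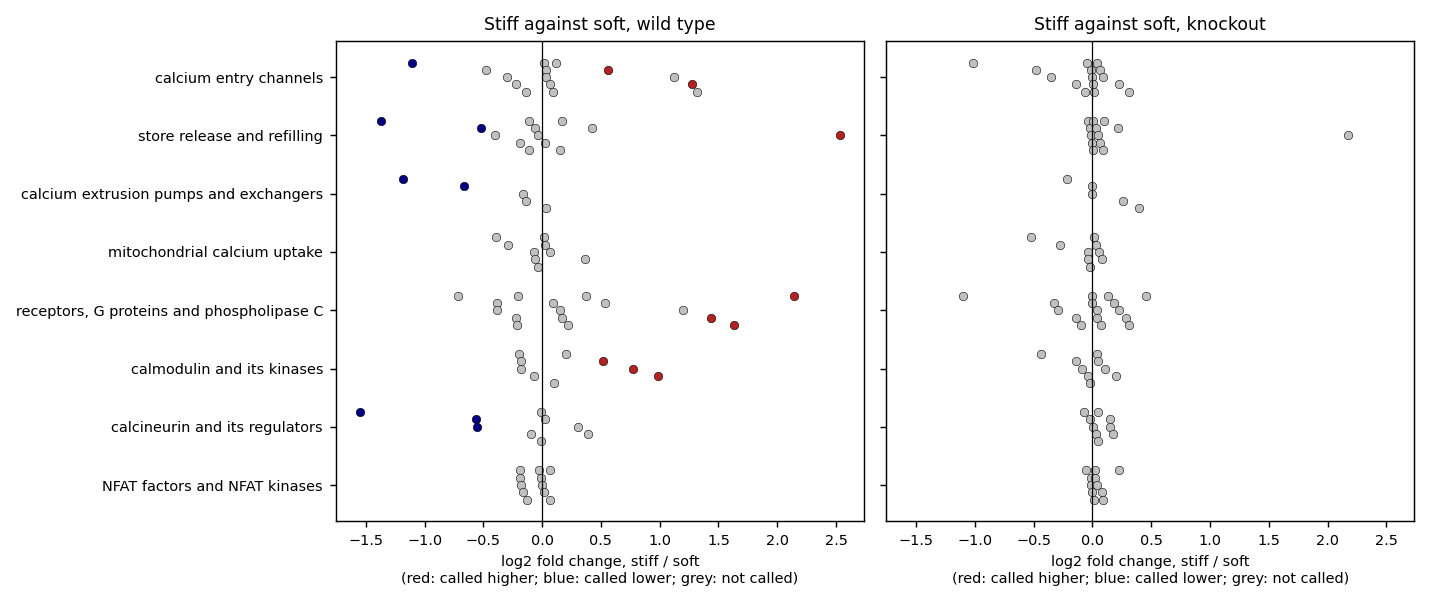
Log2 fold change, stiff against soft (horizontal axis), of the 87 tested genes of 8 calcium pathway lists, 1 point a gene, in WT (left) and KO (right), red where called higher, blue where called lower and grey where not called. In WT 9 genes were called higher and 8 lower, and in KO none.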

How the data were processed

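RNA sequencing covered mouse primary hepatocytes in 4 groups of 2 libraries (wild type or Yap/Taz knockout, soft or stiff hydrogel). The authors aligned poly-A selected reads with HISAT2 2.0.5, counted them per gene with featureCounts and deposited raw counts without normalization, beside each gene's length and position. The submitters' processing notes name mm9, but the positions were not matched to a build and are printed as deposited. The methods name dUTP in cDNA synthesis, but the strand setting of the counting and the rule for reads matching several genes are not given in the sources used here, and a gene and an overlapping gene on the other strand may share counts.

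The fit used edgeR 4.0.16 in R 4.3.3, with limma 3.58.1 (filterByExpr by group, TMM, glmQLFit and glmQLFTest on all 8 libraries, 14279 genes, 4 residual degrees of freedom, common biological coefficient of variation 0.0542). A call needed an absolute log2 fold change above 0.5 together with a Benjamini-Hochberg adjusted p below 0.05, the limits of the study's methods. SE is the absolute log2 fold change divided by the square root of F, and 95% intervals use the total degrees of freedom of the fit. These were 17.3 beside 4 residual ones, since the fit moderates the spread of each gene toward that of all genes. The p-values and SE thus draw on the spread between libraries over all genes, beyond that of the single gene. CPM is the count scaled to a common TMM-adjusted library total, as edgeR's cpm function writes it, also given per kb of the deposited gene length, and log2 CPM used a prior count of 2. TMM factors were 0.978 to 1.02, and a count of 3, the limit that a count of 0 allows, was 0.113 to 0.164 CPM, which covers counting error only. Replicate libraries differed by more than sampling noise in each group (chi-square per degree of freedom 2.62 to 5.45). Each was counted as 1 sample, but this spread cannot tell separate animals from technical replicates. Promoters came from RefSeq (GRCm38.p6), 250 bases before each start. Figures were drawn with matplotlib 3.10.9.

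The named genes were the 10 members, their paralogs, and in each other pathway list up to 4 called genes with the largest change in the wild-type stiffness comparison and the largest in the other comparisons. They also include Yap1, Wwtr1 and Ccn2 as checks, the 5 genes most like and most unlike Piezo1, and Ctu2 and Esrp2, chosen afterwards because they overlap a member. The members and lists were chosen with earlier results of these data known. Alternatives covered DESeq2 1.42.0, scaling, filters, the fold limit, robust fitting, a replicate block, the 4 libraries compared and each library left out. The steps were tested on simulated data. A planned protein comparison was not run. One gene that the naming rule selects is not reported here.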

Additional observations from a re-analysis of the deposited data

Results flagged for a closer look

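The response to stiffness differed between the genotypes, by the interaction term of the edgeR fit over all 14279 genes tested, for 4 of the 10 genes. For Piezo1 the effect in KO minus that in WT was -1.27 on the log2 scale (edgeR adjusted p = 2.83e-07), with both WT stiff libraries above both WT soft libraries and the KO groups overlapping. For Rcan2 it was 1.70 (edgeR adjusted p = 6.01e-07), for Ppp3ca 0.59 (edgeR adjusted p = 2.59e-05) and for Itpr2 0.52 (edgeR adjusted p = 2.95e-04), with both WT stiff libraries below both WT soft libraries in all 3. The Itpr2 value lies close to the fold limit of 0.5 and fell under it in 5 of 17 alternatives, with adjusted p of 2.07e-06 to 0.00412. It was 0.43 without WT soft replicate 1, 0.45 without KO soft replicate 1, 0.48 without KO stiff replicate 2, 0.50 without WT stiff replicate 2 and 0.50 with no filter on low counts.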

How the results depend on the processing

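Across 890 alternative values of the 10 genes, 854 kept their direction (read at 2 decimals) and stayed called or not called. Of the rest, 9 called values fell under a limit, 10 passed the fold limit, 9 counted only because that limit was dropped, and 8 changed sign. A value that was not called counted as kept even where its adjusted p crossed 0.05. Rcan2 between the genotypes on the soft hydrogel did so with the replicate block (edgeR adjusted p = 0.0507). The adjusted p of Nfatc3 in WT, and of Rcan1 and Ppp3ca between the genotypes on the soft hydrogel, also rose above 0.05 in some alternatives. The sign changes were of values that were not called. With a library left out, Orai1 lay between -0.061 (without WT soft replicate 1) and 0.133 in WT and between -0.109 (without KO stiff replicate 1) and 0.170 on the stiff hydrogel, and Stim1 between -0.089 and 0.033 (without KO soft replicate 2) on the soft hydrogel. In KO, Piezo1 lay between -0.0067 and 0.0066 and Ppp3ca between -0.0088 and 0.054, both lowest without KO soft replicate 1, and Piezo1 was at -0.0073 with no filter. With library size alone, Stim1 was at 0.032 and Atp2a2 at 0.032 between the genotypes on the soft hydrogel. With no minimum fold change, 5859 genes were called in WT, 4192 for the difference of the effects, and 2624 and 7299 between the genotypes on the soft and stiff hydrogel, and 6 in place of 1 of the 10 genes on the soft hydrogel. In KO, the 3 genes called for stiffness became 50 with no filter, 1 with robust fitting and 9 with only the 4 libraries compared, and 1 to 8 with a library left out (6 without either WT soft library or KO soft replicate 2, 1 without KO soft replicate 1 and 8 without KO stiff replicate 2). For the difference of the effects DESeq2 called 5 of the 10 genes, with Stim1 (-0.50) in addition, and Stim1 passed the fold limit in 7 of 17 alternatives, with values from -0.55 to -0.43 over the libraries left out. The labels do not say that a replicate number marks a shared animal or batch, and deviations of same-numbered libraries correlated between -0.101 and 0.0424. With the replicate block, 5, 0, 4, 1 and 6 of the 10 genes were called in WT, in KO, for the difference, and on the soft and stiff hydrogel, as without it. Only 2 libraries a group limit the precision, and Rcan2, at 75 to 393 counts, had the widest intervals.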
